A study of Mus musculus with 6 samples.

Results

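Serpina3m, Serpina3n, Serpina3g and Serpina3f are neighbouring genes on mouse chromosome 12 that encode serine protease inhibitors. They were taken as the rows of the deposited expression table with these symbols, 4 of 25170 symbols. The set was chosen by measured values, since Serpina3m was selected on its FPKM difference between Hnrnpf knockout and wild type cells, and the other members are its neighbours. RNA-seq libraries were made from E14, an established line of mouse embryonic stem cells (ESCs), and from E14 cells with a knockout of Hnrnpf, which encodes an RNA-binding protein of the hnRNP family. The 6 libraries were 2 of Hnrnpf KO cells and 1 of wild type (WT) cells grown for 4 days without leukemia inhibitory factor (LIF), the cytokine that keeps mouse ESCs undifferentiated, and 2 of Hnrnpf KO cells and 1 of WT cells kept in LIF. Culture medium held serum in every group. The labels say neither how the knockout was made nor whether libraries came from separate clones or cultures, so p-values cover only the variation among these 6 libraries, possibly technical.

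Serpins are a large family of inhibitors that trap their target protease. An exposed reactive centre loop serves as bait, and its cleavage locks the protease in a dead complex. Humans have a single SERPINA3, alpha-1-antichymotrypsin, a plasma protein of the acute phase, while rodents carry a row of related genes whose loops have diverged. Mouse Serpina3n is known from liver, from reactive astrocytes and as an inhibitor of granzyme B and leukocyte elastase. Mouse Serpina3g (Spi2A) inhibits lysosomal cathepsins and is induced by interferon-gamma and NF-kB, and mouse Serpina3k is a liver serpin that binds tissue kallikrein.

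The transcripts of these genes are shown first because their likeness decides which reads can be told apart. The stretch starts in the coding sequence just before the junction with the last exon, in a part that is much alike between the genes, and runs through the reactive centre loop region into the bases after it. Sequences are GENCODE M21 transcripts (GRCm38), 5′ to 3′ on the plus strand, and capitals mark bases that differ from Serpina3m in the alignment.
Serpina3m: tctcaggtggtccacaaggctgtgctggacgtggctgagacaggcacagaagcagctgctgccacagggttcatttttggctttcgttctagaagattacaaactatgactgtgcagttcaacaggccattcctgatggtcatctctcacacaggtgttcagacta
Serpina3k: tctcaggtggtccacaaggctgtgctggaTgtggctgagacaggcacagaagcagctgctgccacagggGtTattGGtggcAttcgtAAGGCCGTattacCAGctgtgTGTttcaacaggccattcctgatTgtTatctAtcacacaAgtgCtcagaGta
Serpina3n: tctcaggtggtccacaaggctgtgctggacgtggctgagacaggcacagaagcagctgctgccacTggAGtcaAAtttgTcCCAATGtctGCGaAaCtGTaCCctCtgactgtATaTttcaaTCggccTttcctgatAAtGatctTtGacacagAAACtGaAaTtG
Serpina3g: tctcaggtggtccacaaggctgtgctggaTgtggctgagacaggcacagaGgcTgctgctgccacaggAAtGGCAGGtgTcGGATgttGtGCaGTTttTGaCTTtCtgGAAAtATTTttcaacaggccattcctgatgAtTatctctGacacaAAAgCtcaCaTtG
Serpina3f: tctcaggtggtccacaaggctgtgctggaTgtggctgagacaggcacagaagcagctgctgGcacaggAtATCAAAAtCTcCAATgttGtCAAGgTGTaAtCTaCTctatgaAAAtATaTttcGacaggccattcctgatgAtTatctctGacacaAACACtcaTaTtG
The Serpina3m stretch lies on chromosome 12 between 104392787 and 104393892, on the plus strand, with an intron between its exons. Serpina3k differed from it at 26 capital bases, Serpina3n at 41, Serpina3g at 46 and Serpina3f at 47. The loop region in the middle held 13 differing bases of 40 in Serpina3k, 22 of 46 in Serpina3n, 25 of 46 in Serpina3g and 28 of 49 in Serpina3f. Over the aligned bases of the transcripts, identity to Serpina3m was 91.3% for Serpina3k, 83.3% for Serpina3n, 82.9% for Serpina3g and 80.9% for Serpina3f. For Serpina3g, 1349 of the 1659 bases of Serpina3m were aligned. Serpina3c, neither a member nor shown here, had 90.3%. Of the 1510 windows of 150 bases, the read length, in the Serpina3m transcript, 5 were identical in Serpina3k and none in Serpina3n, Serpina3g or Serpina3f. With every base of the window aligned and up to 10 differences allowed, 43.8% of windows matched Serpina3k, 8.41% matched Serpina3n and none matched Serpina3g or Serpina3f. By this rule 15.7% matched Serpina3c. With unaligned bases counted as differences, the closest Serpina3f window held 10. All but those 5 windows thus hold at least 1 base that differs from Serpina3k, and every window holds one that differs from each other member.

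**Figure D1:**
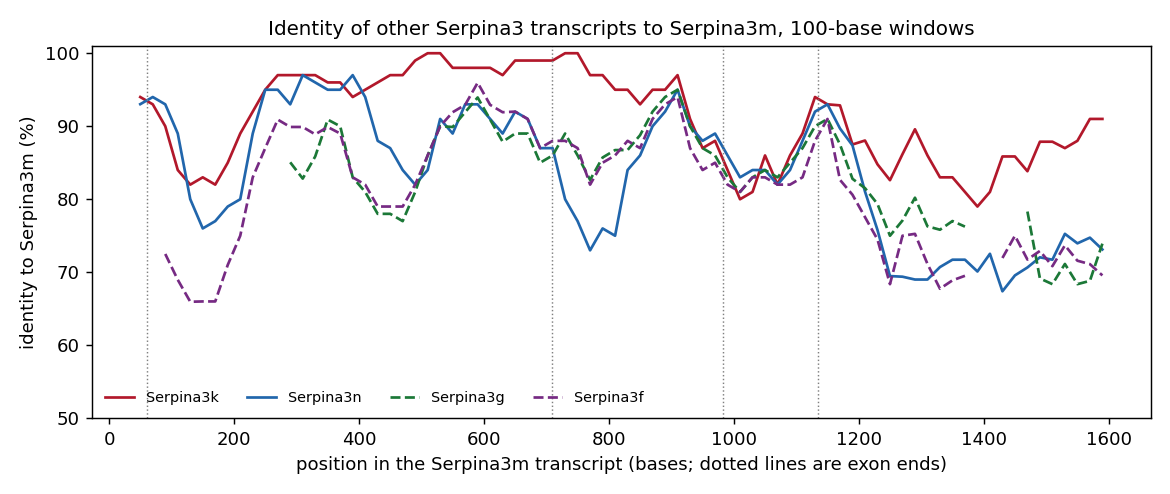
Identity (%) of 4 aligned Serpina3 transcripts to Serpina3m in 100-base windows, against position in the Serpina3m transcript (bases). Dotted lines mark exon ends, and gaps mark windows with fewer than 80 aligned bases. Serpina3k (identity 91.3% over aligned bases) runs above the other genes over most of the transcript, and the lines of Serpina3n, Serpina3g and Serpina3f drop toward the end.

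Serpina3m was the member with a high level, and this level was found in the KO libraries. It stood at 27.5 and 45.8 FPKM (fragments per transcript length and mapped total) in KO libraries 1 and 2 without LIF, against 0.108 FPKM in the WT library without LIF. With LIF it stood at 31.1 and 58.9 FPKM in KO libraries 1 and 2, against 0.164 FPKM in the WT library. All 4 KO libraries lay far above both WT libraries, and KO library 2 lay above KO library 1 in each medium, by 1.67 times without LIF and 1.89 times with LIF. The KO mean was 36.7 ± 13.0 FPKM without LIF and 45.0 ± 19.7 FPKM with LIF (SD, n = 2 each), and the lone WT libraries have no replicate error. In bulk RNA, a change in the number of cells with the transcript and a change in its amount per cell cannot be told apart.

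On the log2(FPKM + 1) scale, Serpina3m was higher in KO than in WT libraries by 5.04 without LIF and by 5.24 with LIF. These differences are a description without a test, since the gene was chosen for them. As ratios of FPKM they come to 340 and 274, but the WT values below the line are so low that the ratios are loose. Of the genes of like transcript length that were above 0, only 6.34% lay below Serpina3m in the WT library without LIF and 10.6% in the WT library with LIF. Among all 25170 symbols Serpina3m ranked 3406 and 2040 in the KO libraries without LIF, against 14524 in the WT library. With LIF it ranked 3177 and 1697 in the KO libraries, against 13691 in the WT library. It is annotated with a 1659-base transcript of 5 exons that starts at 104387164 and ends at 104394257, and with a second transcript that starts at 104338486, in the first exon of Serpina3k.

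The other members did not reach such levels in any library. Serpina3n (chromosome 12, 104406729 to 104414329), downstream of Serpina3m, stood at 0.0458 and 0.0988 FPKM in KO libraries 1 and 2 without LIF and was listed at 0 in the WT library. With LIF it stood at 0.117 and 0.155 FPKM in the KO libraries and was again listed at 0 in the WT library. As for Serpina3m, KO library 2 lay above KO library 1 in each medium, and its values were above 0 in KO libraries alone, at between 0.167% and 0.375% of the Serpina3m level. Between 1.13% and 10.2% of the genes of like length above 0 lay below these KO values, so they sit at the lower edge of what was recorded. Whether reads of Serpina3m account for them was not tested. Serpina3g (104236245 to 104241939) and Serpina3f (104214544 to 104221129) were listed at 0 in all 6 libraries. Whether a listed 0 is an absent transcript or a failed estimate cannot be told from these values. In all, 2 genes reached 20 FPKM in one library and were at 0 in a different one, and the reason was not tested. Thus 1 of the 4 members, Serpina3m, averaged at least 1 FPKM over the libraries and could be tested.

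**Figure D2:**
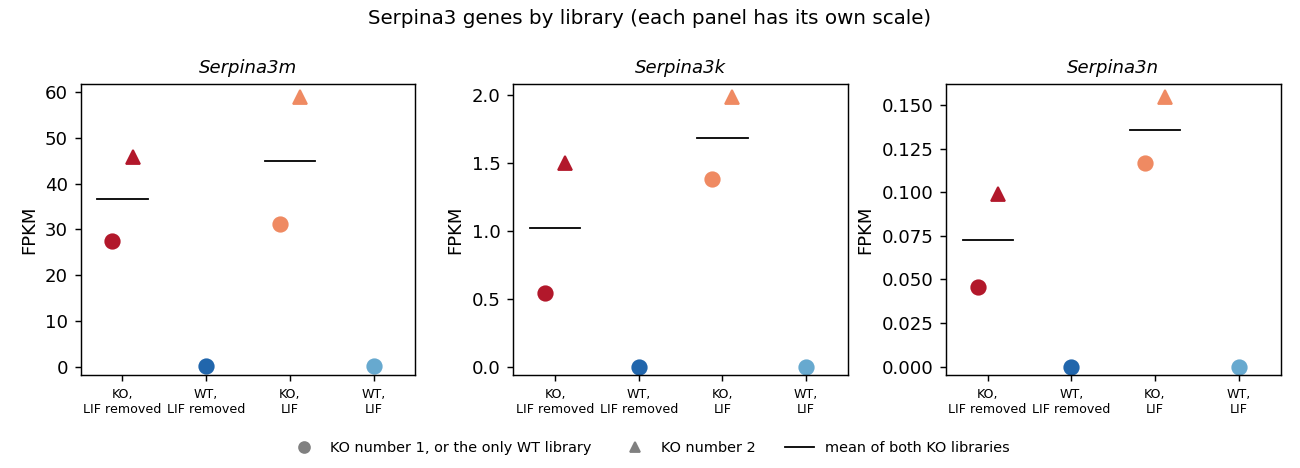
FPKM of Serpina3m, Serpina3k and Serpina3n in each library, on a scale of its own in each panel; circles are KO library 1 or the lone WT library, triangles KO library 2, and the line the mean of both KO libraries. Serpina3m lies between 27.5 and 58.9 FPKM in KO libraries and at 0.108 and 0.164 FPKM in WT libraries, while the Serpina3n panel ends near 0.155 FPKM.

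Among the related genes around the members, Serpina3k (104338486 to 104346144) was the other one to reach 1 FPKM. It stood at 0.544 and 1.499 FPKM in KO libraries 1 and 2 without LIF and at 1.39 and 1.99 FPKM in the KO libraries with LIF, and was listed at 0 in both WT libraries. Its level was between 1.98% and 4.46% of that of Serpina3m in the same library. It is also the gene whose transcript is closest to Serpina3m and shares a first exon with it, so how the counting divided reads between them is uncertain. Of the 11 Serpina3 genes in the table, 6 were above 0 in a KO library, 1 (Serpina3m) was above 0 in a WT library, and 5 were listed at 0 throughout. These counts take in 4 KO libraries but 2 WT libraries, so they are not on a par. Over all 25170 symbols, 63.9% to 65.3% were above 0 in each KO library and 61.6% to 63.0% in each WT library. The small values were those of Serpina3i, at 0.0466 FPKM in KO library 2 without LIF and 0.146 FPKM in KO library 2 with LIF, and of Serpina3c and Serpina3h, at 0.0634 and 0.0504 FPKM in KO library 2 without LIF. Serpina3m thus differed from its neighbours in level by a wide margin in every KO library.

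Further out in the same serpin row, the genes of the Serpina1 group, which encode alpha-1-antitrypsin proteins, were listed at 0 in all libraries. Serpina5, the protein C inhibitor, stood at 0.351 and 0.0474 FPKM in KO libraries 1 and 2 without LIF and was listed at 0 elsewhere. Serpina6, the corticosteroid-binding globulin, was above 0 only in the WT library without LIF, at 0.0560 FPKM. Of the 21 Serpina genes beside the members, 8 were above 0 in a library and 1, Serpina3k, reached 1 FPKM.

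LIF removal, the comparison that the choice of members did not use, left no change of Serpina3m past the test. Same-numbered libraries had 27.5 FPKM without LIF against 31.1 with LIF for KO library 1, 45.8 against 58.9 for KO library 2, and 0.108 against 0.164 for WT. The value without LIF was the lower one each time, by 0.17, 0.35 and 0.07 on the log2(FPKM + 1) scale, yet the KO libraries of both media overlapped. Over both genotypes the difference was -0.20 (SE 0.26, 95% interval -0.80 to 0.41, unadjusted p = 0.470, limma adjusted p = 0.623). Over all 11785 genes tested, 21.4% passed the threshold of an adjusted p under 0.05 in this comparison, 8.73% higher and 12.7% lower without LIF. Within KO cells the difference was -0.26 (SE 0.35, 95% interval -1.10 to 0.57, limma adjusted p = 0.670), and 6.92% of tested genes passed, 3.05% higher and 3.88% lower. The response of KO cells minus that of WT cells was -0.19 (SE 0.61, limma adjusted p = 0.9996), a comparison in which limma called 0 of 11785 genes and 340 had an unadjusted p under 0.05. The WT values of Serpina3m lie so low that log2(FPKM + 1) can hardly show a response in WT cells, so this value says little about a difference of responses, and with a pseudocount of 0.1 it was 0.076. The difference over both genotypes also takes in these WT values, and so lies nearer 0 than that within KO cells. The intervals within KO cells and over both genotypes leave room for a fall of Serpina3m by more than a factor of 1.67, the gap between the KO libraries without LIF. Without KO library 1 without LIF, or without KO library 2 with LIF, the difference turned positive, at 0.02 and 0.08 over both genotypes.

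The genes that flank the cluster were then followed to see whether they moved with Serpina3m. Within 500 kb of the members the table holds 20 other genes, of which 11 were listed at 0 in all libraries and 2, Dicer1 and Clmn, could be tested. Neither passed between KO and WT libraries over both media, where 10.5% of all tested genes did, 5.79% higher and 4.67% lower in KO libraries, although 1 of them had an unadjusted p under 0.05. Dicer1, which encodes the nuclease that cuts microRNA precursors, had 26.6 and 21.9 FPKM in KO libraries without LIF against 18.4 in the WT library, and 25.3 and 22.2 FPKM in KO libraries with LIF against 21.1 in the WT library. Its difference was 0.27 (SE 0.13, limma adjusted p = 0.242). Clmn, which encodes the membrane protein calmin, had 1.32 and 1.33 FPKM in KO libraries without LIF against 1.93 in the WT library, and 1.98 and 1.35 FPKM in KO libraries with LIF against 3.24 in the WT library. Its difference was -0.51 (SE 0.20, limma adjusted p = 0.143), in the direction opposite to Serpina3m. LIF removal called neither of them by limma (adjusted p = 0.812 for Dicer1 and 0.274 for Clmn), and neither had an unadjusted p under 0.05 in that comparison. Gsc, the homeobox gene goosecoid, starts 0.0862 Mb from the Serpina3m start and had a mean too low to be tested. It stood at 0.467 and 1.51 FPKM in KO libraries without LIF against 1.01 FPKM in the WT library, and at 0.317 and 0.157 FPKM in KO libraries with LIF against 0.0851 FPKM in the WT library. Its values overlapped between genotypes without LIF.

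Within 1 Mb, 10 of 47 genes were tested and 1 was called between KO and WT libraries, in the downward direction, as were 4.67% of all tested genes. Tcl1, a coactivator of the kinase Akt that is expressed in undifferentiated ESCs, had 3.805 and 5.55 FPKM in KO libraries without LIF against 18.9 in the WT library, and 30.6 and 31.0 FPKM in KO libraries with LIF against 90.1 in the WT library. It fell by 1.67 on the log2 scale in KO libraries (SE 0.16, limma adjusted p = 0.00440) and by 2.40 on LIF removal (SE 0.15, limma adjusted p = 0.000620). Ppp4r4, a regulatory subunit of protein phosphatase 4 on the other side of the cluster, had 12.3 and 20.01 FPKM in KO libraries without LIF against 8.67 in the WT library, and 0.946 and 2.68 FPKM in KO libraries with LIF against 1.28 in the WT library. It rose by 2.46 on LIF removal (SE 0.28, limma adjusted p = 0.00186), with a difference of 0.51 between KO and WT libraries (SE 0.30, limma adjusted p = 0.315). No tested gene within 1 Mb was called higher in KO libraries, and the median difference of these 10 genes was 0.04, against -0.03 over all tested genes. Without the WT library with LIF the Tcl1 call between genotypes ended (limma adjusted p = 0.0907), as it did without the WT library without LIF (0.0986).

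Over the 10 Mb on either side, 100 genes beside Serpina3m were tested, of which 4 were higher and 8 lower in KO than in WT libraries, with a median difference of -0.08. The 4 higher ones were Dlk1, Meg3, Rian and Mirg, genes of an imprinted cluster that starts 5.07 Mb away, with log2 differences of 1.06, 3.05, 3.08 and 2.77. The Dlk1 call ended without the filter (limma adjusted p = 0.0553). Between them and Serpina3m no tested gene was called higher. Of the 403 tested genes of chromosome 12 other than Serpina3m, 9 were higher and 18 lower in KO libraries, and their median difference was -0.06. Among all 11785 tested genes, 5.79% were higher and 4.67% lower in KO libraries.

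**Figure D3:**
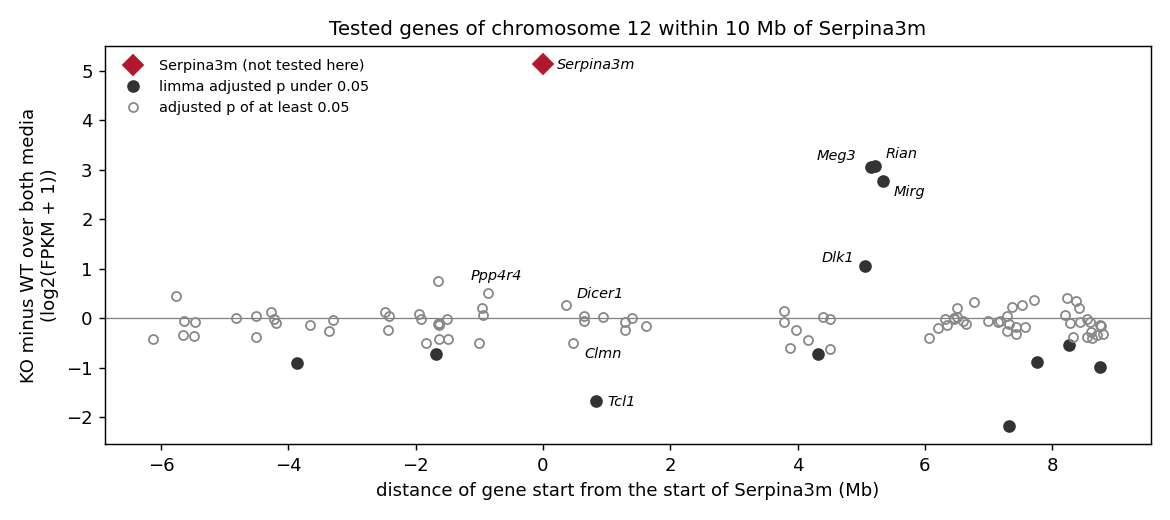
Difference of KO minus WT libraries over both media (log2(FPKM + 1)) for the tested genes of chromosome 12, against the distance of their start from that of Serpina3m (Mb); filled points passed limma at an adjusted p under 0.05 and open points did not. Serpina3m stands near 5 and its tested neighbours within 1 Mb between -1.67 and 0.51, and the next high points are Meg3, Rian and Mirg beyond 5 Mb.

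Set beside the listed serpins, Serpina3m ranked nearer the front in KO than in WT libraries. This restates the difference for which the gene was chosen, so it is a description without a test. It ranked 4 and 3 of 60 serpin genes in the KO libraries without LIF against 12 in the WT library, and 4 and 1 in the KO libraries with LIF against 11 in the WT library. Its share of the summed serpin FPKM was 13.2% and 16.6% in KO libraries against 0.0667% in the WT library without LIF, and 15.4% and 26.2% in KO libraries against 0.0987% in the WT library with LIF. These are FPKM, levels per length, and the ranks and shares rest on how reads were divided between close copies and on the transcript length used, neither of which is known here.

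Of 35 serpins of other clades, 14 were listed at 0 in all libraries and 10 were tested, of which 4 were higher and 0 lower in KO libraries by limma, with 6 at an unadjusted p under 0.05 and a median difference of 0.31. Among all tested genes, 5.79% were higher and 4.67% lower in KO libraries. Serpinf1, which encodes the secreted factor PEDF, had 21.5 and 27.7 FPKM in KO libraries against 12.1 in the WT library without LIF, and 52.8 and 53.6 FPKM in KO libraries against 28.7 in the WT library with LIF. It rose by 0.91 (SE 0.13, limma adjusted p = 0.0111). Serpine2, an inhibitor of thrombin and urokinase, rose by 0.54 (adjusted p = 0.0339), Serpinb9b by 0.99 (adjusted p = 0.0347) and Serpinb9, an intracellular inhibitor of granzyme B, by 0.95 (adjusted p = 0.0387), all by limma. The last 3 calls ended when no filter on low values was used (limma adjusted p = 0.0692, 0.108 and 0.0847), and all 4 ended without either WT library. The change of Serpina3m was on another scale, and none of these genes lies on chromosome 12.

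On LIF removal, where Serpina3m did not pass the test, 4 of the 10 tested serpins of other clades rose and 2 fell, with a median of 0.44 against -0.03 over all tested genes. The shares over all tested genes were 8.73% higher and 12.7% lower without LIF. Serpine2 rose by 1.53 (limma adjusted p = 0.000923), with 36.7 and 43.1 FPKM in KO libraries and 25.4 in the WT library without LIF, against 12.6 and 12.5 in KO libraries and 8.90 in the WT library with LIF. Serpinb9 rose by 1.21 (limma adjusted p = 0.00816), Serpinb9b by 0.92 (0.0222) and Serpini1, neuroserpin, by 0.63 (0.0211). Serpinf1 fell by 1.12 (limma adjusted p = 0.00160) and Serpinb6c by 1.37 (0.00819). The calls of Serpinb9b and Serpini1 ended without the filter (limma adjusted p = 0.0672 and 0.0560), and these and that of Serpinb6c ended without either WT library.

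**Figure D4:**
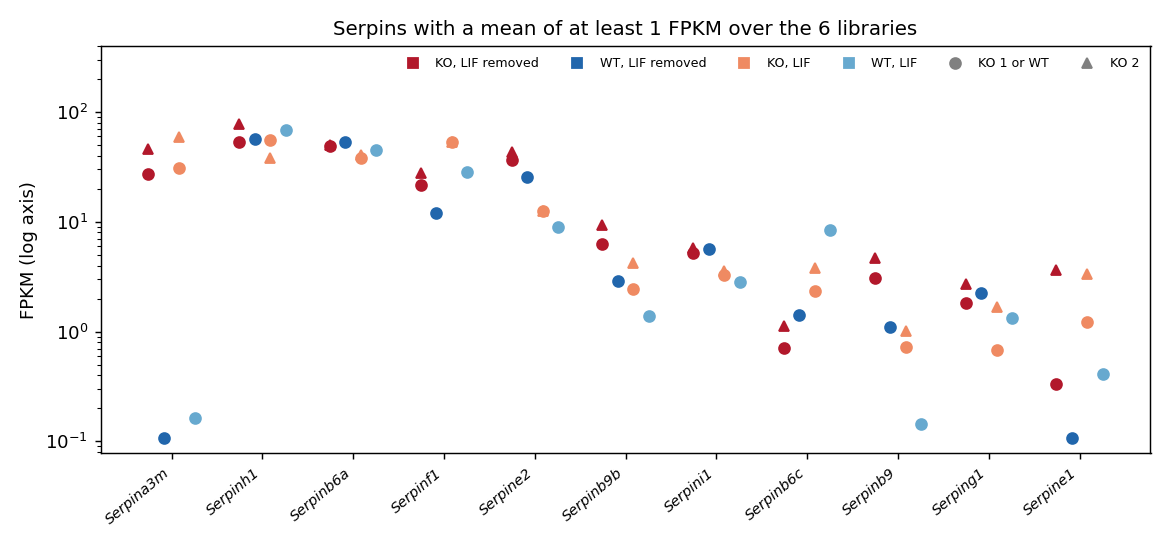
FPKM (log axis) of the 11 serpins averaging at least 1 FPKM, with each library as a point coloured by group; circles are KO library 1 or the WT library and triangles KO library 2. Serpina3m lies near the top in the 4 KO libraries and at 0.108 and 0.164 FPKM in the WT libraries, a wider gap than any other serpin shows.

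Proteases that serpins of this clade can bind, and genes of the signals known to induce them, were read beside Serpina3m. Neutrophil elastase (Elane), cathepsin G (Ctsg), granzyme B (Gzmb) and mast cell chymase (Cma1) were listed at 0 in all libraries. Of 30 candidate proteases 11 were tested, and 0 were higher and 1 lower in KO libraries by limma, with 6 at an unadjusted p under 0.05. The shares over all tested genes were 5.79% higher and 4.67% lower. Ctsl, the lysosomal cysteine protease cathepsin L, had 43.9 and 50.3 FPKM in KO libraries against 63.2 in the WT library without LIF, and 48.5 and 37.0 FPKM in KO libraries against 81.3 in the WT library with LIF. It fell by 0.67 (SE 0.16, limma adjusted p = 0.0374), a call that ended without the filter (0.0983), under quantile normalization (0.0532) and without the intensity trend (0.0666). On LIF removal Prss23 rose by 1.54 (limma adjusted p = 0.0428) and the kallikrein Klk8 fell by 0.60 (0.0252). The call of Prss23 ended without the filter, under quantile normalization and without the intensity trend (0.102, 0.0539 and 0.0567), and that of Klk8 without the filter (0.0640).

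Of the acute-phase and STAT3 genes, 10 were tested and limma called 0 between KO and WT libraries, with 2 at an unadjusted p under 0.05 and a median of -0.05. Limma called 10.5% of all tested genes in this comparison. Stat3, the transcription factor downstream of LIF, had 8.43 and 10.7 FPKM in KO libraries against 6.78 in the WT library without LIF, and 12.9 and 12.5 FPKM in KO libraries against 8.53 in the WT library with LIF (difference 0.48, SE 0.14, limma adjusted p = 0.0727). Of the acute-phase genes too low to be tested, Lcn2, Saa2, Orm1, Fga and Fgb were listed at 0 in all libraries. Saa3 stood at 0.881 and 0.580 FPKM in KO libraries with LIF and Saa1 at 0.442 FPKM in KO library 1 with LIF, and both were listed at 0 in every other library. A2m stood at 1.48 and 0.606 FPKM in KO libraries against 0.605 FPKM in the WT library without LIF, and at 1.91 and 0.775 FPKM in KO libraries against 0.613 FPKM in the WT library with LIF. On LIF removal 2 of the 10 rose and 3 fell, among them the receptor genes Lifr (fell by 0.86, limma adjusted p = 0.0124) and Il6st (fell by 0.56, limma adjusted p = 0.0133), calls that ended without either WT library. Among all tested genes, 8.73% rose and 12.7% fell on LIF removal. By its p for LIF removal, Serpina3m ranked 8891 of 11785. Of 11 tested glucocorticoid-responsive genes, limma called 0 between KO and WT libraries, with 3 at an unadjusted p under 0.05, and on LIF removal 2 rose and 1 fell.

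Of 18 tested interferon-gamma genes, the group to which Serpina3g belongs by its known induction, 8 rose and 0 fell in KO libraries while Serpina3g was listed at 0, with a median of 0.43 against -0.03 over all tested genes. The shares called over all tested genes were 5.79% higher and 4.67% lower in KO libraries. Irgm1, an immunity-related GTPase, had 27.1 and 34.9 FPKM in KO libraries against 9.90 in the WT library without LIF, and 9.92 and 13.3 FPKM in KO libraries against 1.27 in the WT library with LIF. It rose by 2.00 (SE 0.23, limma adjusted p = 0.00848). The related GTPases Gbp2, Igtp and Irgm2 rose by 1.79, 1.53 and 1.43 (limma adjusted p = 0.0149, 0.00960 and 0.0112). On LIF removal 8 of the 18 rose and 1 fell, with B2m, the light chain of MHC class I, rising by 1.43 (limma adjusted p = 0.00100) and Gbp2 by 2.41 (0.00203). Among all tested genes, 8.73% rose and 12.7% fell on LIF removal. The order of Irgm1 over the libraries differs from that of Serpina3m in that each genotype was higher without LIF than with LIF, without overlap in KO libraries. Of 14 tested NF-kB genes, 2 rose and 0 fell in KO libraries, the TNF receptor gene Tnfrsf1a by 1.07 (limma adjusted p = 0.0111) and the chemokine gene Cxcl10 by 1.63 (0.0205), and on LIF removal 3 rose and 3 fell. The calls of Gbp2 and Cxcl10 in KO libraries ended without the filter (limma adjusted p = 0.0631 and 0.0745). Without either WT library, the calls of all these named interferon-gamma and NF-kB genes between genotypes ended.

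Promoters are shown for Serpina3g and Serpina3n because these genes stood at or near 0 beside a changed interferon-gamma group. RefSeq promoters (GRCm38.p6), from 250 bases before to 50 bases after the start, were matched for 3 of the 4 members, and Serpina3m had no entry. They were searched on both strands for the STAT motif TTCNNNGAA and for the kappaB motif, and capitals mark the matches. The Serpina3g window is chromosome 12, 104235897 to 104236196, and that of Serpina3n 104406458 to 104406757, both on the plus strand. Starts are those of RefSeq, and the Serpina3g window ends before the GENCODE start of this gene at 104236245.
Serpina3g: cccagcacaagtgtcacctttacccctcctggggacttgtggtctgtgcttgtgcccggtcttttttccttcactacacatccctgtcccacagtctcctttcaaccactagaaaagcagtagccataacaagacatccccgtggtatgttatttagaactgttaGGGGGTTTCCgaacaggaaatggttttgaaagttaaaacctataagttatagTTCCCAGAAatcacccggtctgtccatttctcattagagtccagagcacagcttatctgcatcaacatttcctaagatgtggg
Serpina3n: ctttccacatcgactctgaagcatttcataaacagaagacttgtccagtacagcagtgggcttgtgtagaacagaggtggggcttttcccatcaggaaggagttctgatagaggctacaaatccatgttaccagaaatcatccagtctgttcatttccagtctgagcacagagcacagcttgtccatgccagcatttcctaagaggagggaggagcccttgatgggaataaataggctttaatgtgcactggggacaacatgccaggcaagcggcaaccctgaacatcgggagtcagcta
Serpina3g holds a STAT match that begins at position -33 from the RefSeq start and a kappaB match at -85, and Serpina3n holds neither. Serpina3f holds a STAT match at -121, or at -210 from another RefSeq start. Serpina3i, not a member, holds both motifs, STAT at -102 and kappaB at -154. Over 32851 promoters, 8.30% hold the STAT motif and 5.81% the kappaB motif. A match is a description of letters in this window.

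The genes most like Serpina3m over the 6 libraries were sought by Pearson correlation of log2(FPKM + 1) among 11124 named genes averaging at least 1 FPKM. They were Pcyox1 (r = 0.995), which encodes a lysosomal prenylcysteine oxidase, Polr1a (0.993), the large subunit of RNA polymerase I, Atat1 (0.993), the tubulin acetyltransferase, Zkscan6 (0.993), a zinc finger gene, and Copg1 (0.993), a subunit of the COPI vesicle coat. Pcyox1, Polr1a and Copg1 lie on chromosome 6, as Hnrnpf does, Atat1 on chromosome 17 and Zkscan6 on chromosome 11. The share of chromosome 6 among all genes compared was not counted, and whether position bears on the likeness was not tested. Copg1 had 64.3 and 65.9 FPKM in KO libraries against 26.6 in the WT library without LIF, and 63.8 and 65.6 FPKM in KO libraries against 26.6 in the WT library with LIF. The likeness is mainly the gap between genotypes, which 160 genes shared at r of at least 0.95, and the size of change differed, at 1.26 for Copg1 on the log2 scale. By Spearman correlation 42 genes had the same order of libraries as Serpina3m, of which 1, Atat1, is among these 5.

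ESC markers were recorded in every library, and markers of liver, where Serpina3n and Serpina3k are known, were low. Limma called 7 of the 8 ESC markers lower on LIF removal, and 4 of 7 tested trophoblast markers higher. In that comparison 2 of 4 tested neural markers rose and 1 fell, and 1 of 3 tested primitive endoderm markers rose. The 1 tested hepatocyte marker fell, and 0 tested fibroblast or immune markers were called. Among all tested genes, 8.73% rose and 12.7% fell. All 8 ESC markers averaged at least 1 FPKM, with sums of 3904 and 3217 FPKM in KO libraries against 4323 in the WT library without LIF, and of 6819 and 6877 FPKM in KO libraries against 9598 in the WT library with LIF. The 11 hepatocyte markers summed to between 1.37 and 4.37 FPKM in KO libraries and between 1.01 and 3.76 FPKM in WT libraries, with Alb, Apoa2, Afp and Fgb listed at 0 in all. Fibroblast markers summed to 7.33 to 10.03 FPKM in KO libraries and 4.17 to 6.41 FPKM in WT libraries. Of the macrophage and immune markers, Lyz2 and Tyrobp were listed at 0. Over both media, trophoblast markers summed to 40.04 to 164.8 FPKM in KO libraries and 47.2 to 65.4 FPKM in WT libraries. Neural markers summed to 73.3 to 98.0 FPKM in KO libraries and 97.1 to 116.2 FPKM in WT libraries. Krt8 was most of the trophoblast sum without LIF, at 51.2 and 123 FPKM in KO libraries and 35.3 FPKM in the WT library. Dppa5a was most of the ESC sum with LIF, at 4062 and 4115 FPKM in KO libraries and 6460 FPKM in the WT library. Between genotypes, 1 of 7 tested trophoblast markers was called, Hand1, which rose by 1.11 in KO libraries (limma adjusted p = 0.0466). Among 4 tested neural markers 1 was called, Slc1a3, which fell by 0.69 (limma adjusted p = 0.0458). Both calls ended without the filter (limma adjusted p = 0.115 and 0.116). Not all markers of these 2 lists went the same way. With LIF, Tfap2c had 16.9 and 21.0 FPKM in KO libraries against 33.4 in the WT library. Nes had 3.41 and 4.42 FPKM in KO libraries with LIF against 1.57 in the WT library. Within each medium the sums of fibroblast, immune and primitive endoderm markers were higher, and those of ESC markers lower, in both KO libraries than in the WT library. Members did not all follow their sum. Nanog had 185 and 146 FPKM in KO libraries without LIF against 126 in the WT library. Limma called 0 of the 8 ESC markers between genotypes, against 10.5% of all tested genes. Lama1, of primitive endoderm, had 1.22 and 0.804 FPKM in KO libraries with LIF against 2.71 in the WT library. Most of the immune sum was Cd68, at 9.51 FPKM in KO library 1 with LIF against 9.59 in the WT library. Immune marker sums were 8.19 and 12.9 FPKM in KO libraries against 3.92 in the WT library without LIF, and 10.2 and 14.9 FPKM in KO libraries against 9.75 in the WT library with LIF. Primitive endoderm marker sums were 8.30 and 13.4 FPKM in KO libraries against 6.36 in the WT library without LIF, and 5.03 and 5.36 FPKM in KO libraries against 4.75 in the WT library with LIF. The part of these markers in the Serpina3m level was not tested. Hnrnpf itself stood at 28.4% and 8.28% of the WT level in KO libraries 1 and 2 without LIF and at 28.9% and 10.8% with LIF. KO library 2, with the lower Hnrnpf, had the higher Serpina3m in both media.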

How the data were processed

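Values are FPKM as deposited, 1 per gene symbol and library. Per the submitters' processing notes the authors used STAR, Cufflinks and mm10; tool versions, annotation and strand handling were not given in the sources used here. Per the labels' protocols, total RNA was sequenced as 150 bp paired-end reads. No counts were used, so the depth behind a value is unknown; FPKM summed to 456155 to 556318 per library. Gapdh lay at 1.11 to 2.58 FPKM and Actb at 1133 to 1468 FPKM, so values of genes with close copies are uncertain.

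Values were analysed as log2(FPKM + 1), which understates changes of low genes. The 11785 symbols with a mean of at least 1 FPKM were tested with limma 3.58.1 in R 4.3.3 (empirical Bayes with an intensity trend, two-sided, Benjamini-Hochberg adjusted p under 0.05 over all tested genes). An additive fit of genotype and medium gave the effects over both genotypes or media (3 residual degrees of freedom). A 4-group fit gave LIF removal in KO cells and the difference of responses (2 residual degrees of freedom), with each WT library assumed to vary like the KO libraries. LIF removal in WT cells, 1 library against 1, was not tested. Scripts were tested on simulated data with 200 changed genes.

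Members and the 14 gene lists were chosen with earlier results of these data known. Named were the members, tested genes within 500 kb (1 Mb as an alternative), Serpina genes reaching 1 FPKM, up to 4 genes with the lowest p per list described, and the 5 genes most like Serpina3m, without unnamed models, ribosomal, mitochondrial and small RNA genes. Gsc, Tcl1, Ppp4r4, the imprinted genes, low Serpina3 genes, genes listed at 0 and cell type markers given by FPKM alone were named after their values were seen. The transcript stretches shown were aligned with MAFFT 7.526. Identities and window counts came from pairwise global alignments with Biopython 1.88. Alternatives were the pseudocount, filter, scaling, trend, replicate block and leaving out each library.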

Additional observations from a re-analysis of the deposited data

How the results depend on the processing

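Each medium has 1 WT library, no read counts were available, and the labels do not pair KO numbers across media. The Serpina3m difference on LIF removal passed the threshold under no setting. Leaving out 1 library at a time gave -0.44 to 0.076 over both genotypes, -0.71 to 0.19 within KO cells and -0.64 to 0.26 for the difference of responses, the positive values being those without KO library 1 without LIF or KO library 2 with LIF. With a pseudocount of 0.1 the difference of responses was 0.076. The genes past the threshold numbered 817 to 1924 for LIF removal over both genotypes, 124 to 821 within KO cells, 0 to 1 for the difference of responses and 5 to 994 between KO and WT libraries when 1 library was left out; without a WT library, the genotypes are compared in 1 medium. Without the filter the counts were 0 for LIF removal within KO cells and 335 between KO and WT libraries. The Dicer1 difference on LIF removal was 0.013 under quantile normalization and ran between -0.15 and 0.024 with 1 library left out, positive without the WT library of either medium or without KO library 2 without LIF. Of the 18 named genes called between KO and WT libraries, 9 lost the call without the filter, 4 without the trend, 4 under quantile normalization and 1 under median ratio scaling. Of the 25 called on LIF removal, 7 lost it without the filter, 2 without the trend and 1 under quantile normalization.

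With the KO number as a replicate block, the Serpina3m difference on LIF removal had a limma adjusted p of 0.249 over both genotypes, 0.170 within KO cells alone and 0.926 for the difference of responses. The genes past the threshold with the block numbered 3516, 2615 and 0. The differences between KO numbers 1 and 2 with and without LIF correlated at r = 0.366 over 11785 genes, with 2 pairs and no label that pairs them.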
